A study of Drosophila melanogaster x Drosophila simulans with 3 samples.

Results

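Adjoining exonic regions whose reads leaned to opposite parental alleles were taken from RNA of heads of Drosophila hybrids. Exonic regions are numbered in the deposited tables, and a pair was formed by 2 regions whose numbers differ by 1. Both regions of a pair had a mean of 50 or more allele-assigned reads per library. The log2 ratio of D. melanogaster to D. simulans reads, pooled over 3 libraries with a pseudocount of 0.5, was 0.4 or more in one region and -0.4 or less in the other, each with that sign in every library. This choice gave 345 pairs made of 666 of the 60040 regions, 331 leaning to D. melanogaster and 335 to D. simulans. The regions were thus chosen by their allele ratios, which are given below as a description with no test.

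The animals were virgin F1 females from mothers of the D. melanogaster strain Berlin and fathers of the D. simulans strain C167.4, kept at 25°C and frozen at 1 to 1.5 days of age. Every library came from this 1 genotype without treatment, and each of the 3 independent replicates pooled heads of 200 flies, so single animals cannot be told apart. The D. melanogaster allele is always the maternal one, so species and parent of origin cannot be told apart. The libraries held 26406916 to 29004108 reads, of which 18157586 to 20364709 were assigned to an allele, and D. melanogaster took 53.5% to 54.2% of these. Replicate 2 stood apart in match quality, with exact matches in 31.3% of assigned reads against 63.8% and 57.8% in replicates 1 and 3. The tables pair no region with a gene, so no marker gene of the head could be checked, and regions are called by their lengths in bases.

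In a hybrid, both alleles of a gene share the same nucleus and the same regulatory proteins, and a difference between them is therefore read as local to the chromosome or to its transcript. Exons of 1 gene that are always spliced together are carried by the same mRNA molecules and are expected to lean alike. Alternative promoters, splice sites and poly(A) sites let exons of 1 gene be used separately, and neighbouring genes can each have their own allelic difference. The series title names exons and isoforms as its subject. Whether the regions of a pair lie in the same gene is not given in the files, and how well reads of each species are placed on its reference also enters every ratio. The genomic DNA control that would measure such placement was not analysed here.

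Opposite leans between adjoining regions were uncommon. Of the 15457 adjoining pairs in which both regions had enough reads, 345 (2.23%) leaned to opposite alleles and 1924 (12.4%) to the same allele by the same limits. Among the same-way pairs, 1292 leaned to D. melanogaster and 632 to D. simulans. Where both regions of an adjoining pair passed the limits, 15.2% of pairs were opposite. The share grew with the distance between region numbers. It was 23.0% at a distance of 2, 35.0% at 5 and 44.5% at 10, and stayed at 44.1% to 45.2% from 20 to 100. These shares describe the tables and carry no test, since regions are not replicates and all come from the same libraries.

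**Figure D1:**
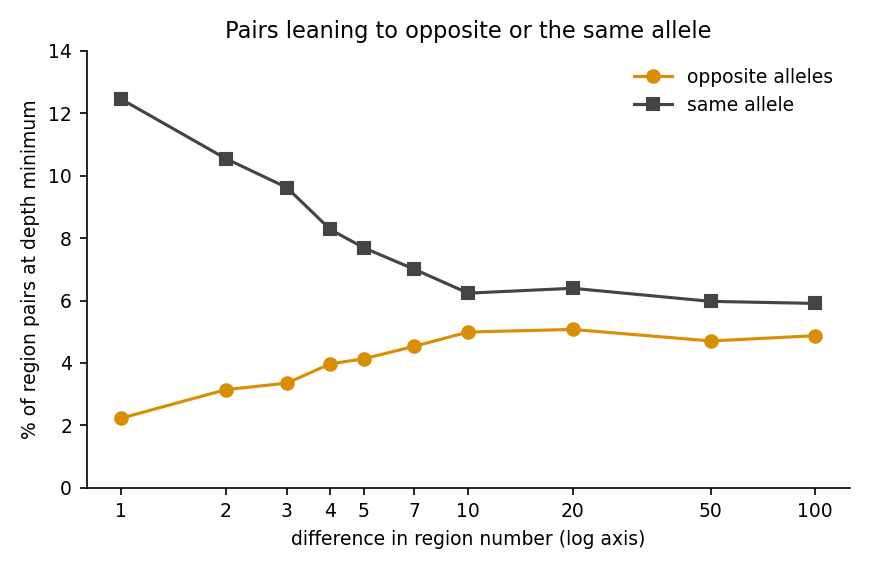
Percent of region pairs at the depth minimum (vertical axis) that passed the limits toward opposite alleles (circles) or the same allele (squares), by the difference between their numbers (horizontal log axis). Opposite pairs were 2.23% and same-way pairs 12.4% at a distance of 1, against 4.87% and 5.91% at 100.

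Most leans were modest, and which direction had the larger median depended on the scaling. The 331 D. melanogaster-leaning regions had a median pooled log2 ratio of 0.75, with quartiles of 0.56 and 1.15, or a median D. melanogaster share of 62.8%. The 335 D. simulans-leaning regions had a median of -0.61, with quartiles of -0.90 and -0.48, or a median share of 39.5%. An absolute log2 ratio of 1 or more was found in 102 regions of the first kind and 75 of the second, and one of 4 or more in 21 and 9. The median of all regions at the depth minimum was itself 0.08 toward D. melanogaster. With ratios centred on it, an alternative chosen after seeing the data, the medians were 0.67 and -0.70, and 89 and 81 regions reached 1. Without centring, both regions were below 1 in 186 pairs, 1 region reached it in 132 pairs, and both did in 27. Where 1 region reached it, this was the D. melanogaster-leaning one in 82 pairs and the D. simulans-leaning one in 50.

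The medians were alike in the 3 libraries. The D. melanogaster-leaning regions had medians of 0.80, 0.82 and 0.74 in replicates 1, 2 and 3, and the D. simulans-leaning ones of -0.67, -0.69 and -0.59. The difference between the log2 ratios of a pair had a median of 1.60, 1.61 and 1.54 in the 3 libraries. Its SD over libraries had a median of 0.31. Deep pairs varied less. In the 157 pairs whose shallower region had 50 to 100 reads the median SD was 0.37, in the 141 with 100 to 300 it was 0.29, in the 35 with 300 to 1000 it was 0.19, and in the 12 with 1000 or more it was 0.18. Opposite pairs made up 2.51%, 2.23%, 1.54% and 1.98% of adjoining pairs in these depth classes.

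**Figure D2:**
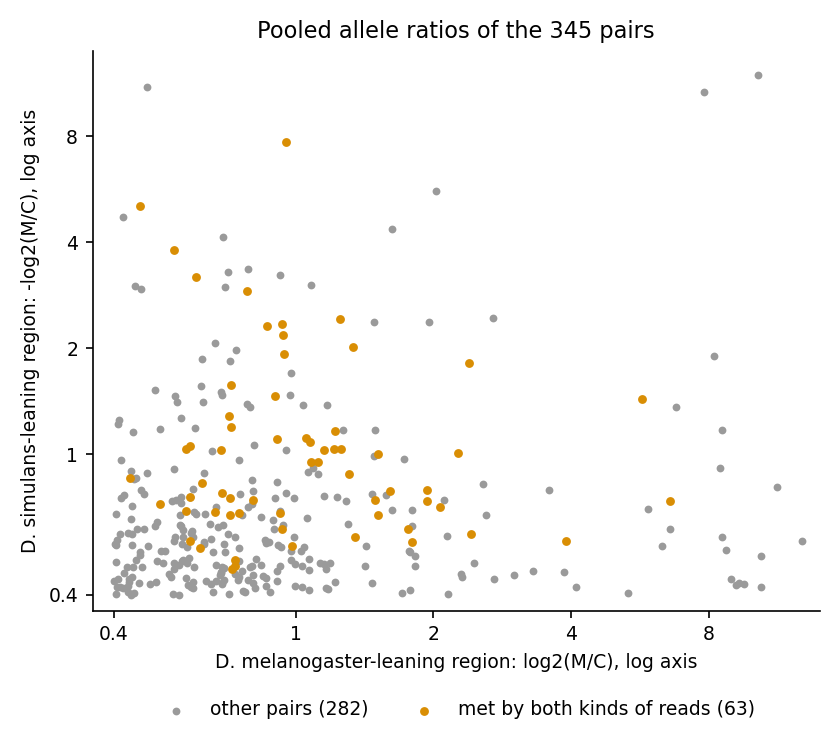
Each point is 1 of the 345 pairs, with the pooled log2 ratio of its D. melanogaster-leaning region on the horizontal axis and the negative of that of its D. simulans-leaning region on the vertical axis, both on log axes. Most points lie between 0.4 and 1 on both axes, and the 63 pairs that met the limits with each kind of read alone are marked in orange. Values above about 8 include regions without a read of the other allele, where the ratio depends on the pseudocount.

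The limit cuts through a dense part of the data. The pair nearest inside it, of 119 and 442 bases, had pooled log2 ratios of 0.44 and -0.40, and the pair nearest outside, of 148 and 561 bases, had 6.83 and -0.40 (0.400156 and 0.399236 in size before rounding). At any size, 1543 adjoining pairs had opposite signs in all 3 libraries.

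For comparison with all regions, edgeR's quasi-likelihood test of the alleles was fitted over the 33303 regions with a mean of 20 or more reads, and all 666 members were among them. It called 299 of the 331 D. melanogaster-leaning members in their direction, where 23.4% of all tested regions were called toward D. melanogaster. It called 292 of the 335 D. simulans-leaning members, where 12.2% of all tested regions were called toward D. simulans. Among the 25277 regions with a mean of 50 or more reads, as every member had, 26.4% and 13.9% were called toward D. melanogaster and D. simulans. The rule used the same counts, so nothing is read from these shares. Both regions were called in 276 pairs, 1 in 61 and none in 8, and no member was called in the other direction. The DESeq2 Wald test called 385 members in their direction and both regions in 129 pairs, where 17.8% of all tested regions were called. No share over all adjoining pairs is set beside the pair counts of either test here, so nothing is read from them. In all, 591 of the 666 members were called in their direction, where 35.6% of tested regions were called in either direction. Calls toward D. melanogaster made up 65.8% of all edgeR calls, and 53.2% where TMM factors scaled the alleles to each other.

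A library that took no part in the choice gave the same opposite lean for most pairs. When replicates 2 and 3 alone chose the pairs, 348 of 441 had the chosen signs in both regions in replicate 1 (78.9%). With replicate 2 held out it was 342 of 406 (84.2%), and with replicate 3 held out 333 of 416 (80.0%). The median within-pair difference was 1.27, 1.40 and 1.21 in the libraries held out, against 1.39, 1.45 and 1.49 in the libraries that chose. The size limit of 0.4 was met again in both regions by 203, 209 and 185 pairs (46.0%, 51.5% and 44.5%). The held-out values were thus lower than the choosing ones in each case, and 3 libraries are too few for a test, since the smallest two-sided p of an exact sign test would be 0.25. The libraries share the references and the placement of reads.

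**Figure D3:**
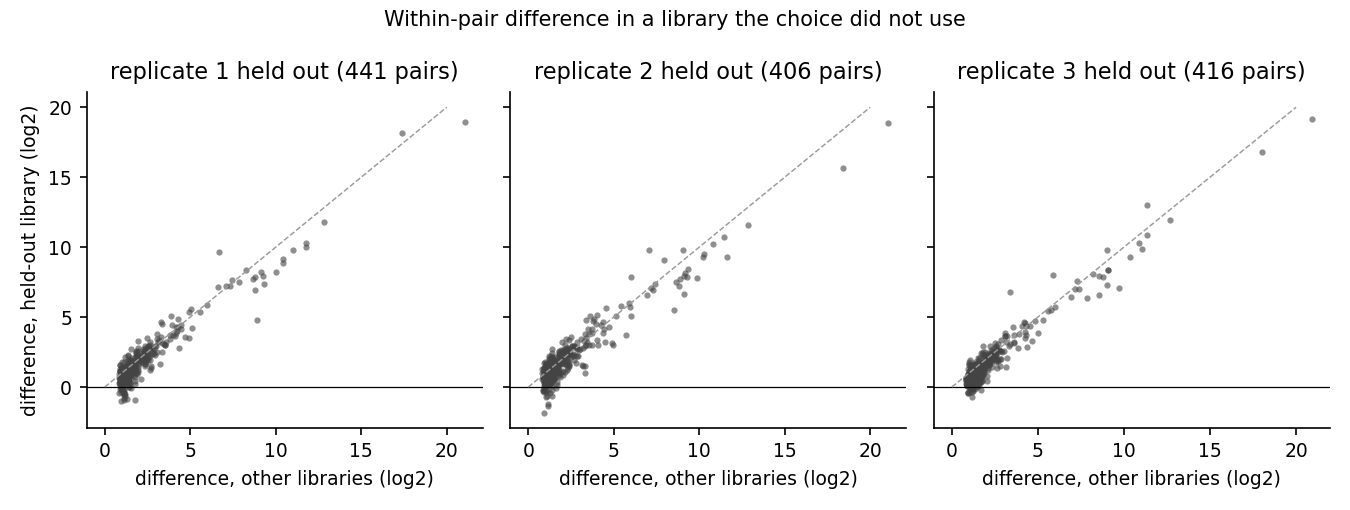
Within-pair difference of log2 ratios in the library held out (vertical axis) against that pooled over the other libraries, which chose the pairs (horizontal axis), with 1 panel per library held out and 1 point per pair. The dashed line marks equal values, and 419 of 441, 389 of 406 and 399 of 416 points lie above 0.

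The pairs with the most reads included both small and large opposite leans. S5082_SI and S5081_SI, of 149 and 502 bases, had the most reads in the shallower region. In S5082_SI, replicates 1, 2 and 3 had 1684, 1483 and 1919 D. melanogaster reads against 1015, 967 and 1421 D. simulans reads, a share of 60.1% ± 2.49 (SD, n = 3). In S5081_SI they had 1074, 1099 and 1330 against 1659, 1593 and 1869, a share of 40.6% ± 1.16 (SD, n = 3). The choice required opposite sides of 50% in every library, and the shares lie about as far from it in each region. Reads placed on both genomes did not show this reversal, with log2 ratios of 0.39 in S5082_SI and 0.27 in S5081_SI. Reads placed on one genome only gave 0.74 and -4.59. In S5081_SI this kind held 56, 13 and 26 D. melanogaster reads against 747, 762 and 785 D. simulans reads.

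The next pair by reads, of 1258 and 432 bases, kept its opposite lean in each kind of read. The region of 1258 bases had 1418, 1780 and 1802 D. melanogaster reads against 714, 934 and 883, a share of 66.4% ± 0.769 (SD, n = 3). The region of 432 bases had 2607, 2469 and 2741 against 3674, 3635 and 4132, a share of 40.6% ± 0.825 (SD, n = 3). The libraries were close to each other in each region. Reads placed on both genomes gave log2 ratios of 0.83 and -0.53, and reads placed on one genome gave 1.17 and -0.66. Both alleles had more reads per base in the shorter region, and the D. simulans allele gained more there, with log2 differences of -2.19 for D. melanogaster and -3.71 for D. simulans (longer minus shorter region, per base).

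A larger reversal was seen in the pair of 1157 and 732 bases. The first region had 1579, 1675 and 2206 D. melanogaster reads against 903, 898 and 1194, a share of 64.5% ± 0.80 (SD, n = 3). The second had 237, 322 and 334 against 1436, 1295 and 1716, a share of 16.8% ± 2.91 (SD, n = 3). Here each allele had more reads per base in the region that leaned to it, by 1.95 on the log2 scale for D. melanogaster and by 1.23 for D. simulans (log2 difference of -1.23, first minus second). Each kind of read gave the same signs, 0.72 and -2.82 on both genomes and 1.21 and -1.97 on one.

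The remaining pairs of the 5 with the most reads had regions of 144 and 229 bases on the D. melanogaster side. In the pair of 229 and 129 bases the D. melanogaster share was 89.0% ± 2.68 in the first region and 42.5% ± 3.15 in the second (SDs, n = 3), and the signs were the same with reads on both genomes, at 6.09 and -0.16, and on one, at 2.53 and -0.76. In the pair of 144 and 796 bases the shares were 77.8% ± 1.50 and 41.2% ± 0.555 (SDs, n = 3). Its region of 144 bases had no unassigned read in any library, and its reads on both genomes, 25, 138 and 54 per library, gave a log2 ratio of -0.15 against 1.94 on one genome. By library these reads numbered 14, 60 and 29 for D. melanogaster against 11, 78 and 25, so that only replicate 2 leaned to D. simulans.

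**Figure D4:**
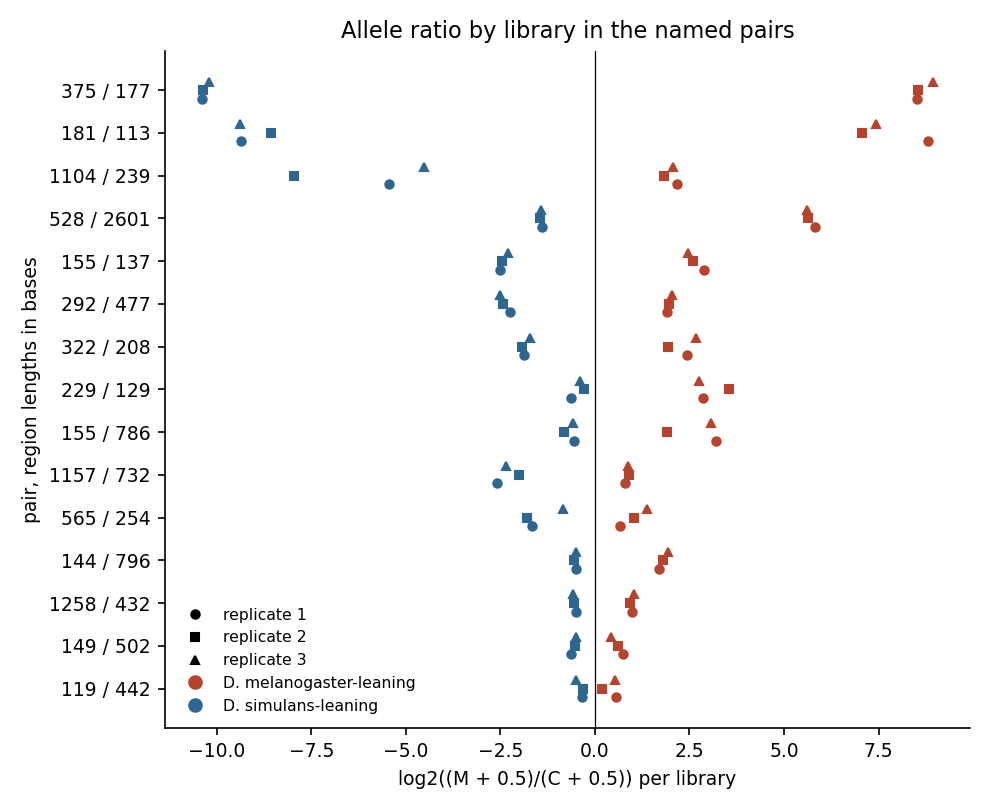
Allele ratio, log2((M + 0.5)/(C + 0.5)) with M for D. melanogaster and C for D. simulans reads, in each of the 3 libraries (circle, square, triangle) for the 15 named pairs, labelled by the lengths of the D. melanogaster-leaning and D. simulans-leaning region. The 2 regions of every pair lie on opposite sides of 0 in all 3 libraries, since the choice required it, and libraries lie within about 1 unit of each other except in the pairs of 181 and 113, 1104 and 239, and 155 and 786 bases.

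Among the 5 pairs with the largest smaller ratio of their regions, 4 had few or no reads placed on both genomes in at least 1 region. The pair with the largest difference had regions of 375 and 177 bases and 98.4% and 97.73% identity between the species. Its first region had 182, 186 and 246 D. melanogaster reads in replicates 1, 2 and 3 and no D. simulans read. With 3 counts in all standing in for none, D. melanogaster reads were higher by a factor of about 205 or more. Its second had 676, 660 and 594 D. simulans reads and no D. melanogaster read. On the same terms D. simulans reads were at least 643-fold higher. It was the 1 pair of the 345 with a single allele in each region. No read of either region was placed on both genomes and none was unassigned, in any library. These bounds thus describe reads as placed, and the part of placement in them was not tested.

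In the pair of 181 and 113 bases, the first region had 671, 471 and 776 D. melanogaster reads against 1, 3 and 4. The second had no D. melanogaster read and 326, 188 and 332 D. simulans reads, so that D. simulans reads were at least 282-fold higher. None of the reads of this second region was placed on both genomes. The pair of 1104 and 239 bases had shares of 80.2% ± 1.94 and 1.88% ± 1.91 (SDs, n = 3), and the second region had 1 read on both genomes over the 3 libraries. In the pair of 292 and 477 bases, with shares of 79.8% ± 0.898 and 15.8% ± 1.29 (SDs, n = 3), reads on both genomes were few. In its first region they numbered 8, 8 and 6 for D. melanogaster against 6, 11 and 6, which is nearly level, and in its second 17, 27 and 6 against 9, 12 and 2, a lean to D. melanogaster with a log2 ratio of 1.10.

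The pair of 155 and 137 bases differed from these 4 in that nearly all its assigned reads were placed on both genomes. The first region had 55, 45 and 46 D. melanogaster reads against 7, 7 and 8, and the second had 15, 11 and 19 against 88, 63 and 96. Their shares were 86.8% ± 1.78 and 15.3% ± 1.05 (SDs, n = 3). At 99.35% and 99.27% identity most reads matched both species equally, and unassigned reads numbered 272 to 344 per library in the first region and 275 to 334 in the second. The ratios thus rest on the small part of the reads that covers a difference between the species.

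Reads placed on both genomes are compared directly between the references, and they gave the opposite lean in fewer pairs than reads placed on one genome. In 220 pairs each region had a mean of 20 or more reads of each kind per library. Both kinds had the pair's signs in 167 of these (75.9%), reads on one genome alone in 44, and reads on both genomes alone in 9. Among 1280 same-way pairs with as many reads, both kinds had the pair's signs in 1172 (91.6%). In the 220 pairs the median within-pair difference was 1.20 with reads on both genomes and 1.87 with reads on one, and it was larger with reads on one genome in 152. Most of the disagreement was in the D. melanogaster-leaning region, which had the other sign or 0 in reads on both genomes in 34 pairs, against 11 for the D. simulans-leaning region. The other 125 pairs had too few reads of a kind, 61 on both genomes and 76 on one, some of them both.

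**Figure D5:**
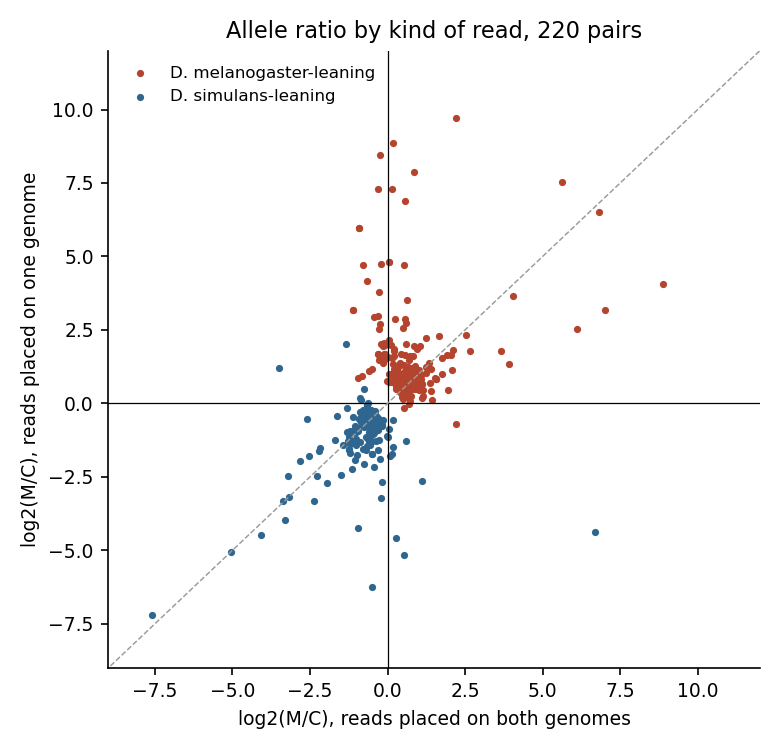
Pooled log2 ratio from reads placed on one genome (vertical axis) against that from reads placed on both (horizontal axis) for the regions of the 220 pairs with enough reads of each kind, red for D. melanogaster-leaning and blue for D. simulans-leaning regions. A few red points stand near 0 on the horizontal axis and above 7.5 on the vertical axis, and the dashed line marks equal ratios.

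The limits of size and sign were met by each kind of read on its own in 63 pairs. These had a median within-pair difference of 2.22 and a median SD of 0.29. Their median log2 ratios were 0.93 and -0.88, and their median lengths 554 and 454 bases. The 53 pairs in which 1 kind did not have both signs had D. melanogaster-leaning regions of a median of 277 bases. This group and its examples were picked after their values were seen.

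Among the 63, the pair of 4227 and 1127 bases joined a small lean and a large one that were alike in each kind of read. Its first region had 446, 455 and 478 D. melanogaster reads against 341, 305 and 359, a share of 57.9% ± 1.73 (SD, n = 3). Its second had 53, 41 and 58 against 1710, 1509 and 1878, a share of 2.88% ± 0.206 (SD, n = 3). The log2 ratios were 0.46 and -5.05 on both genomes and 0.45 and -5.06 on one. The pair of 2976 and 779 bases was an example of modest leans on each side, with shares of 61.7% ± 1.85 and 36.9% ± 1.52 (SDs, n = 3) and ratios of 0.59 and -0.77 on both genomes and 0.74 and -0.79 on one.

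A region of 2574 bases stood between 2 regions leaning the other way, and both of its pairs were among the 63. It had 1147, 1059 and 1222 D. melanogaster reads against 605, 597 and 591, a share of 65.6% ± 1.73 (SD, n = 3). The region of 818 bases before it had a share of 16.5% ± 2.10 (SD, n = 3), and the one of 563 bases after it a pooled log2 ratio of -0.61. Of all 666 regions, 24 belonged to 2 pairs, 14 of them D. melanogaster-leaning between D. simulans-leaning regions and 10 the reverse. In the longest run, regions of 292, 477, 286 and 1144 bases alternated with pooled log2 ratios of 1.96, -2.38, 1.49 and -0.99. In the regions of 292 and 477 bases, reads on both genomes were few and gave -0.06 and 1.10, so that they did not show this alternation.

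Pairs were also ranked by reads placed on both genomes alone, where their signs held in all 3 libraries. F36543_SI and S36544_SI, of 155 and 786 bases, ranked above the others by the smaller ratio of their regions. In F36543_SI, reads on both genomes numbered 26, 30 and 25 for D. melanogaster against 0, 4 and 2 for D. simulans. In S36544_SI they numbered 5, 9 and 1 against 35, 73 and 68. Reads on one genome leaned to D. melanogaster in both regions, at 1.78 and 1.19, so that all assigned reads gave S36544_SI a modest share of 38.8% ± 2.28 (SD, n = 3) and F36543_SI one of 86.9% ± 6.53.

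The next pairs in this ranking had the same signs in both kinds of read. In the pair of 155 and 137 bases, also in this ranking, the kinds cannot be compared, as its first region had 4 reads on one genome over the 3 libraries. The pair of 322 and 208 bases had shares of 83.6% ± 3.61 and 21.9% ± 1.32 (SDs, n = 3), with ratios of 2.52 and -2.20 on both genomes and 2.32 and -1.61 on one. Its D. melanogaster reads per base were nearly level between the regions, with a log2 difference of -0.39, while D. simulans reads differed by -4.57 (first minus second). The pair of 528 and 2601 bases had shares of 98.1% ± 0.158 and 27.0% ± 0.334 (SDs, n = 3), and its first region had a ratio of 2.22 on both genomes against 9.71 on one. No difference from exact-match classes could be formed for this pair, as a region of it had no exactly matching assigned read in any library. The pair of 565 and 254 bases had shares of 67.0% ± 5.45 and 27.2% ± 7.39 (SDs, n = 3), with a wider spread between libraries.

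Extreme ratios went with reads placed on one genome and with short regions. Among the 489 members with an absolute log2 ratio under 1, a median of 41.4% of assigned reads was placed on one genome and the median length was 389 bases. This share was 56.3% in the 109 with 1 to 2, 65.3% in the 38 with 2 to 4, and 99.7% in the 30 with 4 or more, whose median length was 178.5 bases. Identity between the species did not follow the same order, with medians of 96.27%, 95.18%, 95.26% and 95.82%. In 14 of these 30, under 5% of all reads, unassigned ones included, were placed on both genomes, against 13 of all other members. Reads of 1 allele only were found in 14 members, 11 with D. melanogaster and 3 with D. simulans reads. The largest of these, of 130 bases, had 3577 D. melanogaster reads in all. Reads of that allele were at least 1192-fold higher with 3 counts standing in for none. The part of read placement in these ratios was not tested. Members with 1 allele only, or with under 5% of reads on both genomes, were not set beside all regions or same-way regions here. These traits are thus not shown to be particular to opposite pairs.

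Members of each direction were much alike in the features the choice did not use. Median identity was 95.95% in D. melanogaster-leaning and 96.19% in D. simulans-leaning members, against 96.10% and 96.08% in same-way regions and 96.65% in all 25277 regions at the same depth minimum. Identity of at most 93% was found in 40 (12.1%) and 32 (9.55%) of the members and in 4.73% of all regions. Median lengths were 375 and 384 bases, against 502 in all regions. The length differed between the species in 122 (36.9%) and 115 (34.3%) of the members and in 31.6% of all regions, and D. melanogaster was the longer in 100 and 81 of these. A difference of a multiple of 3 bases was found in 34 and 31 members. The identifier began with F in 56 and 62 members (16.9% and 18.5%), against 16.9% of all regions, and 88 pairs joined an F and an S region. What the letters stand for is not given in the sources used here. Apart from median identity, these features were not set beside same-way regions here, nor were the unassigned reads and coverage below. They are thus not shown to be particular to opposite pairs.

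Placement of reads also differed between the groups, and the reads placed on one genome are among those the choice used. A median of 52.8%, 47.1% and 50.8% of assigned reads was placed on one genome in D. melanogaster-leaning members in replicates 1, 2 and 3, and of 44.8%, 38.1% and 42.1% in D. simulans-leaning members. All regions at the depth minimum had 36.9%, 30.6% and 36.4%, and D. melanogaster-leaning regions of same-way pairs 44.0%, 37.9% and 43.4%. D. melanogaster-leaning members had the highest of these medians and all regions the lowest in each library, while the other groups changed places in replicate 3. D. simulans-leaning regions of same-way pairs were not set beside the D. simulans-leaning members here. Unassigned reads made up a median of 10.3%, 10.6% and 10.9% of all reads in D. melanogaster-leaning members, and of 13.0%, 14% and 13.5% in D. simulans-leaning members. All regions had 16.7%, 17.1% and 17.3%. The authors' coverage signal per region, whose origin is not stated, had a median log2 ratio of Berlin to C167.4 of -0.32 in D. melanogaster-leaning members, -1.10 in D. simulans-leaning members and -0.68 in all regions (pseudocount of 1). It may come from the same reads and is no separate support.

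Regions of opposite pairs differed more in assigned reads per kb than other adjoining regions. This measure leaves out unassigned reads and uses the reads that the choice used, so it is not a separate measure of abundance. The absolute log2 difference in assigned reads per kb had a median of 0.95, 1.05 and 1.01 in replicates 1, 2 and 3. It was 0.57, 0.59 and 0.51 in same-way pairs and 0.62, 0.64 and 0.57 in all adjoining pairs at the depth minimum. A mean difference over 2 was found in 72 opposite pairs (20.9%), against 7.74% of same-way pairs and 10.3% of all. Neither direction had clearly more assigned reads per kb, with signed medians of -0.01, -0.07 and -0.06 (D. melanogaster-leaning minus D. simulans-leaning). No test was run, as regions are not replicates.

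Split by allele, each allele had more reads per base in the region that leaned to it in 156 pairs, and in all 3 libraries in 115. Both alleles were denser in the D. melanogaster-leaning region in 87 pairs and in the D. simulans-leaning region in 102. In the 156 crossed pairs the median log2 difference per base was 1.07 for D. melanogaster reads and -0.999 for D. simulans reads. Of the 63 pairs met by each kind of read, 29 were crossed in this way. The choice by opposite leans itself favours such crossing and leaves almost no room for the reverse. Other adjoining pairs were not set beside these counts here, so nothing is read from them.

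Regions that flank a pair tended to the side of the member next to them. Regions next to any leaning region did so too, so this is not shown to be particular to opposite pairs. The region before or after a D. melanogaster-leaning member had enough reads in 218 cases, and its log2 ratio had a median of 0.28, 0.22 and 0.21 in replicates 1, 2 and 3. Next to a D. simulans-leaning member there were 234, with medians of -0.22, -0.27 and -0.21. The flanking region was on its member's side in 138 (63.3%) and 166 (70.9%) cases. For all regions that passed the size and sign limits, the next region was on the same side in 75.6% of cases toward D. melanogaster and 70.2% toward D. simulans. The first is above the share next to D. melanogaster-leaning members, and the second is close to that next to D. simulans-leaning ones. Where both flanking regions had enough reads, in 159 pairs, both were on their member's side in 66, 1 in 80 and neither in 13. Of these flanking regions, 28 and 24 were themselves members of another pair. Where that other pair included the member next to it, the choice itself had set the flanking region on the other side. The medians and counts above include these cases, so they are not directly comparable with the shares for all regions. The difference between the 2 pooled flanking medians was 0.40, and 0.54 without flanking regions that are members.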

How the data were processed

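The deposited tables give raw counts of reads in 10 classes for each of 60040 exonic regions and each library, per the file headers. In 2 classes reads matched both references equally and are unassigned. The 4 classes of an allele hold reads placed on its genome only, or on both but better on its own, either exactly or with mismatches. The aligner was Bowtie, per the submitters' processing notes. The sources used here give no version, genome build, annotation or mismatch limit. Further columns deposited by the authors hold the percent identity of the species and, for each genotype, a coverage signal, and these were the same in the 3 tables.

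The 4 classes of each allele were summed per library. Tables were joined by identifier, since their rows are in different orders. Every identifier number from 1 to 60040 occurs once. edgeR 4.0.16 in R 4.3.3 fitted allele with replicate as a block over regions with a mean of 20 or more reads, with 1 library size for both alleles of a library. The block pairs the alleles, which were read from 1 pool of heads in each library. The adjusted p threshold was 0.05 (Benjamini-Hochberg). DESeq2 1.42.0 was an alternative. Only the edgeR fit was tried on simulated counts, with known folds and the same spread for all regions. The choice of pairs and the placement of reads were not tested in this way. Only 2 residual degrees of freedom remained per region, so the spread was estimated largely from all regions together, and p-values measure the spread between these pools. Bounds against 0 use a floor of 3 counts and cover counting error only, as reads carried no molecular identifiers.

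The members, lists and tests were chosen with earlier results of these data known. Named pairs were the 5 with the largest smaller ratio of their regions, the 5 with the most reads in the shallower region, the 5 with the largest smaller ratio in reads placed on both genomes, among pairs with a mean of 20 or more such reads per region and their signs in all 3 libraries, and the pair nearest each side of the limit. Identifiers are printed for 2 pairs. Other pairs are named as chosen after their values were seen.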

Additional observations from a re-analysis of the deposited data

Results flagged for a closer look

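Reads that matched both species equally entered no comparison of the alleles and were seen in the members of opposite pairs, where they numbered 276886 over the 3 libraries. They made up 20.8%, 21.5% and 22.3% of all reads of the members in replicates 1, 2 and 3.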

How the results depend on the processing

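The number of opposite pairs followed the limits: 656 with a depth minimum of 20 reads, 188 with 100, 948 with a size limit of 0.2 and 27 with a size limit of 1. It was 133 with reads placed on both genomes alone, 77 of them among the 345, and 312 with reads placed on one genome, 126 among the 345. As shares of adjoining pairs with enough such reads these were 1.23% and 5.31%, against 2.23% with all assigned reads. The number of pairs was 341 with a pseudocount of 1, 377 with ratios centred on the median region (284 shared), 243 with exact-match classes (130 shared) and 257 within the same letter. Without 1 replicate it was 406 to 441, of which 270 to 285 were shared. Called regions numbered 5927 in DESeq2 and 7468 with reads on both genomes, against 11851, and members called in their direction 385 and 361, against 591. With reads on both genomes 28730 regions and 600 members had enough reads to be tested, and 12 members were called in the other direction. With reads on one genome 8622 of 22481 regions and 463 of 585 members were called, and 4 members in the other direction. Without the replicate block 8024 regions and 507 members were called, and without 1 replicate 9150 to 9371 and 501 to 511. The held-out share of 81.0% was 78.9% to 84.2% by library. The difference between the flanking medians, 0.40, was 0.36 with reads on both genomes, 0.54 without flanking regions that are members, and 0.41 to 0.45 without 1 replicate. These flanking alternatives were chosen after seeing the data. The difference within the pair of 292 and 477 bases turned to -1.15 with reads on both genomes, which were few there. Over the named pairs and their alternatives, 76 values moved by less than the SD over libraries and 25 by more, all keeping their sign. The value that turned also moved by more and is not among the 25. The 76 include 15 values without each replicate, which could not move by more, as they average libraries that also set the SD. With reads on both genomes 9 moved by more and 3 by less, and with reads on one genome 7 and 8. With exact-match classes it was 8 and 6, and with a pseudocount of 1 it was 1 and 14. The cause of these shifts was not tested. With 50 to 100 reads in the shallower region the median SD of the within-pair difference was 0.37, which limits the small leans.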
